A study of Mus musculus with 12 samples.

Results

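The genes described here are 8 genes of cholesterol synthesis and its control in mouse skin wounds: Hmgcs1, Idi1, Fdps, Sqle, Lss, Dhcr7, Srebf2 and Insig1. They were taken by gene name from the expression tables, in which each name had a single row, and they are 8 of the 55487 genes listed. The measure was RNA sequencing of excised wounds with the skin around them, given as TPM, a transcript level scaled for transcript length and for the total of each library. Male C57BL/6JNarl mice, 6 weeks old, each received a pair of full-thickness punch wounds, 6 mm across, on the back under a dressing. CAP wounds received 200 µL of 10 µM capsaicin, the pungent agonist of the sensory channel TRPV1, once daily in 25% Pluronic F127 gel, whereas P-F127 wounds (the sham group) received the gel alone. Wounds were taken at day 3 and day 6, with 3 libraries in each of the 4 groups, and no unwounded or gel-free skin was analysed here. The labels do not say whether libraries of a group came from separate mice, so that p-values measure the spread between libraries only.

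Cholesterol is built from acetyl-CoA through mevalonate, isoprenoid units, squalene and lanosterol. Cells turn the whole route up or down together: when membrane sterol is low, the factor SREBP-2, encoded by Srebf2, is released and enters the nucleus to activate the enzyme genes, and when sterol is high, the INSIG proteins hold its precursor in the endoplasmic reticulum. Insig1 is itself a target of SREBP-2. In skin, epidermal keratinocytes make much of their own cholesterol, which goes into the lipid layers of the barrier and, as the precursor of its last step, into vitamin D.

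Promoter sequences are shown for 4 of the genes because SREBP-2 acts there: Hmgcs1 and Idi1, whose levels followed the other enzymes most closely, Srebf2, which encodes the factor, and Insig1, whose levels did not follow them. Each is the 250 bases before the RefSeq start of the gene on the plus strand of GRCm38.p6, and the capitals mark matches to TCACNCCAC, the letters of a sterol response element, and to CCAAT on either strand (ATTGG when read on the plus strand), the letters that the cofactor NF-Y reads.

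Hmgcs1, chr13:119690101-119690350: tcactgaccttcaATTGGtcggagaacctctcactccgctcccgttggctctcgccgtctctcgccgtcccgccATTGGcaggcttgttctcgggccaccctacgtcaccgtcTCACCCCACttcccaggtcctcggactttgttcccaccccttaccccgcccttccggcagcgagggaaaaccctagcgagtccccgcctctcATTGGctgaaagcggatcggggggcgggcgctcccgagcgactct
Idi1, chr13:8885356-8885605: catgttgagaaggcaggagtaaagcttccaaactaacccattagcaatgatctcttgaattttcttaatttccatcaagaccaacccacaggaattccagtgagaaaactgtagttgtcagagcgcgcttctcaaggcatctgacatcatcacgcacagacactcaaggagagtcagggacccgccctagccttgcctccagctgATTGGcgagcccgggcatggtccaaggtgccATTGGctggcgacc
Srebf2, chr15:82147019-82147268: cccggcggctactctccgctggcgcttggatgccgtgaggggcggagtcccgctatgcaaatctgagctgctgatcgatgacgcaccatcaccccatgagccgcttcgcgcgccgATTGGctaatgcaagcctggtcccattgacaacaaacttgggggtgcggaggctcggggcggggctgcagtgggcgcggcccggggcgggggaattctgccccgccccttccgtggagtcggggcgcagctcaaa
Insig1, chr5:28071162-28071411: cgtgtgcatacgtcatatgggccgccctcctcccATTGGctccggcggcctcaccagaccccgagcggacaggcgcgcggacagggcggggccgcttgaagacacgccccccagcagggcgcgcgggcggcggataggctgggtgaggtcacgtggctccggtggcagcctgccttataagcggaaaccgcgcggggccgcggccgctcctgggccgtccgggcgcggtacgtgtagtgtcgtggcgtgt

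The Hmgcs1 promoter held 3 CCAAT matches in these bases and 1 match to TCACNCCAC, which began at base -137 from the start. In the windows searched, which ran from 250 bases before to 50 after the start, some genes having more than 1 start, CCAAT was found on either strand in 6 of the 8 windows of the 6 members with a RefSeq entry, at least 1 for each gene. It was found in 11 of the 13 windows of other enzymes of the pathway and in 3 of the 13 windows of other regulators of the sterol sensor, compared with 37.4% of 32851 promoter windows of the same length. GGGCGG, the letters read by the factor Sp1, occurred in 7 of 8, 11 of 13 and 10 of 13 windows, compared with 35.7% of all windows. TCACNCCAC was rarer, at 1.24% of windows, and was found for Hmgcs1 alone among the 6 members and in 0 of the 13 windows of other enzymes. These are matches of letters within fixed windows, and the letters searched may overlap one another. Sqle and Fdps had no entry.

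The 12 libraries held between 18533 and 19325 genes at 0.3 TPM or above, and their depth is unknown because TPM keeps no read counts. On the log2 scale, libraries of 1 group correlated with each other across genes at 0.956 to 0.975 and libraries of different groups at 0.934 to 0.975. The tissue label fits its markers, since the summed level of 10 keratinocyte markers was 25648.6 to 94173 TPM and none was listed at 0, while that of 6 macrophage markers was 3768 to 9915 TPM, also with none at 0. CAP day 6 replicate 2 stood apart, with the highest level of Krt10, a keratin of differentiated epidermis, at 40801 TPM and the lowest neutrophil marker sum at 278 TPM. CAP day 3 replicate 3 had the lowest keratinocyte sum, 25648.6 TPM, and the highest macrophage sum, 9915 TPM.

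All 8 genes were expressed in every library and passed the filter for low values. By mean level over the 12 libraries, Hmgcs1 was highest at 186 TPM, followed by Fdps at 141 TPM, Srebf2 at 113 TPM, Sqle at 109 TPM, Dhcr7 at 86.0 TPM, Idi1 at 56.6 TPM, Insig1 at 27.3 TPM and Lss at 19.8 TPM. Hmgcs1 stood above Fdps in each of 3 libraries in all 4 groups, although the ranges of both genes overlapped in each group. Srebf2 and Sqle were neighbours in this order whose places were not settled, since Sqle had the higher mean in both CAP groups (116.4 compared with 116.0 TPM at day 3, and 129.9 compared with 121 TPM at day 6) and Srebf2 in both P-F127 groups. The gap between Idi1 and Insig1 was the clearest, as their ranges did not overlap in any of the 4 groups. The widest spread between the lowest and the highest library was 2.64-fold, for Dhcr7, and the narrowest was 1.59-fold, for Insig1.

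**Figure D1:**
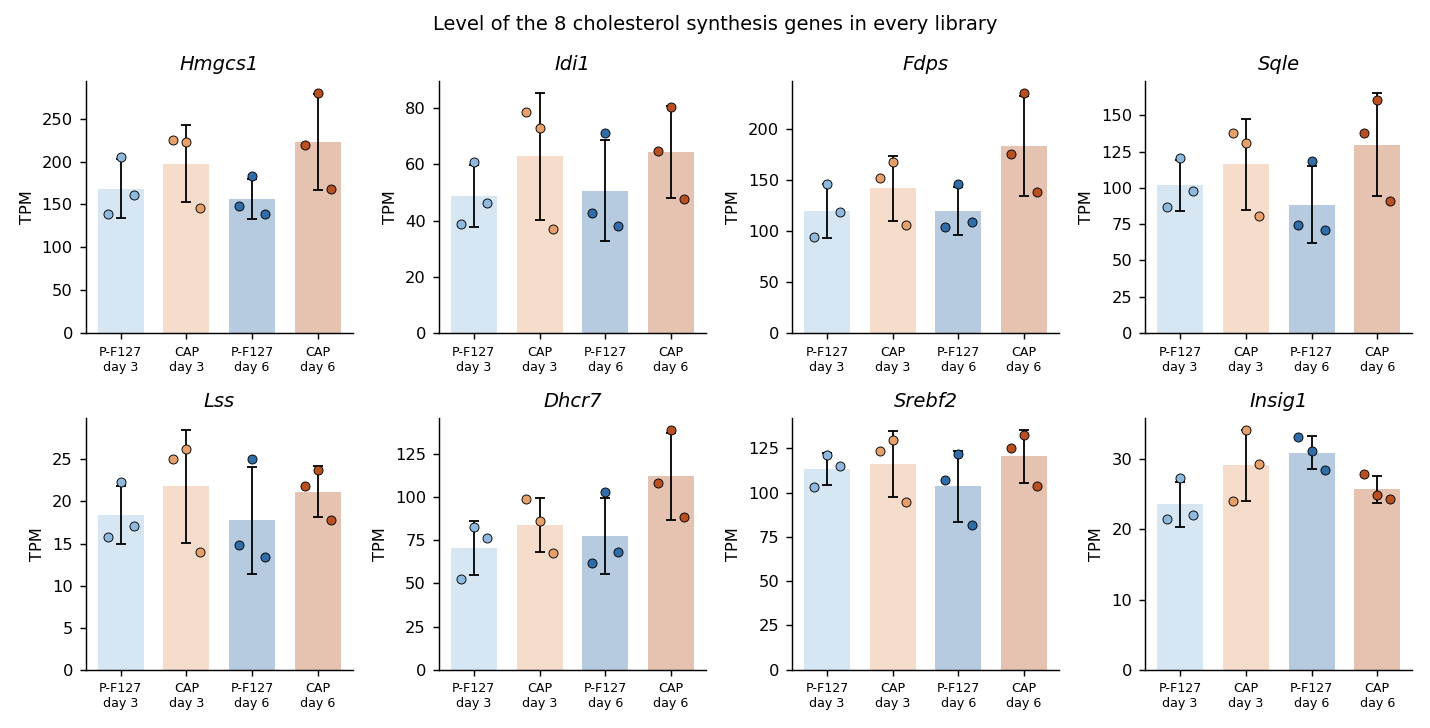
Level in TPM (linear axes from 0) of each of the 8 genes in the 4 groups; points are the 3 libraries of a group in the order of their replicate numbers, bars are the mean and error bars the SD. For the 6 enzymes the CAP day 6 mean lies above the P-F127 day 6 mean with overlapping points, whereas all 3 CAP day 6 points of Insig1 (24.3 to 27.9 TPM) lie below all 3 P-F127 day 6 points (28.5 to 33.2 TPM).

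The early steps are represented by Hmgcs1, Idi1 and Fdps. Hmgcs1 encodes the cytosolic synthase that makes HMG-CoA, the compound from which mevalonate is formed. Its levels were 139, 206 and 161 TPM in P-F127 day 3, 225, 223 and 146 TPM in CAP day 3, 148, 183 and 139 TPM in P-F127 day 6 and 220.0, 280.1 and 168 TPM in CAP day 6. At both days 2 of 3 CAP libraries lay above every P-F127 library of that day, and the remaining one lay within their range. Idi1 encodes the isomerase that interconverts the 5-carbon isoprenoid units, and measured 38.9, 60.8 and 46.3 TPM in P-F127 day 3, 78.5, 72.9 and 37.1 TPM in CAP day 3, 42.5, 71.2 and 38.0 TPM in P-F127 day 6 and 64.9, 80.4 and 47.6 TPM in CAP day 6. The third CAP day 3 library was the lowest of all 12 for this gene, and the groups overlapped at both days. Fdps, which encodes the synthase of farnesyl diphosphate and is the target of nitrogen bisphosphonates, was at 94.0, 146 and 119 TPM in P-F127 day 3 and at 152, 168 and 106 TPM in CAP day 3. At day 6 it was at 104, 147 and 109 TPM in P-F127 and 176, 236 and 138 TPM in CAP, where the lowest CAP library fell short of the highest P-F127 library and the other two exceeded it.

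Sqle and Lss act on squalene. Sqle, squalene epoxidase, a rate-limiting enzyme of the late steps and the target of terbinafine in fungi, measured 86.8, 121 and 97.6 TPM in P-F127 day 3, 138, 131 and 80.3 TPM in CAP day 3, 74.8, 119 and 71.3 TPM in P-F127 day 6 and 138, 161 and 91.1 TPM in CAP day 6. Lss, the cyclase that forms lanosterol, the earliest sterol of the route, measured 15.8, 22.3 and 17.1 TPM in P-F127 day 3, 25.1, 26.2 and 14.0 TPM in CAP day 3, 14.8, 25.0 and 13.5 TPM in P-F127 day 6 and 21.9, 23.8 and 17.8 TPM in CAP day 6. For both genes replicate 2 was the highest of the P-F127 day 6 libraries, and the groups overlapped at both days.

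Dhcr7 encodes the reductase of the last step, whose substrate 7-dehydrocholesterol is the skin's precursor of vitamin D. Its levels were 52.6, 82.5 and 76.3 TPM in P-F127 day 3, 98.6, 85.9 and 67.6 TPM in CAP day 3, 61.7, 103 and 67.9 TPM in P-F127 day 6 and 108, 139 and 88.6 TPM in CAP day 6. At day 6, 2 of 3 CAP libraries exceeded all P-F127 libraries and the lowest did not. Srebf2 varied least among the 7 genes other than Insig1, with 103, 121 and 115 TPM in P-F127 day 3, 124, 129 and 94.8 TPM in CAP day 3, 107, 122 and 82.0 TPM in P-F127 day 6 and 125, 133 and 104 TPM in CAP day 6. Its message encodes a precursor protein that is activated by cleavage, which RNA levels do not measure.

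Insig1 encodes the sterol-dependent anchor that retains the SREBP precursor in the endoplasmic reticulum. Its levels were 21.5, 27.3 and 22.0 TPM in P-F127 day 3, 24.0, 34.1 and 29.3 TPM in CAP day 3, 33.2, 31.1 and 28.5 TPM in P-F127 day 6 and 27.9, 24.8 and 24.3 TPM in CAP day 6. The order of the treatments differed between the days: the CAP mean was the higher at day 3, with overlapping libraries, and every CAP library was below every P-F127 library at day 6.

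The question of the main comparison is whether capsaicin altered these genes in the wound. At day 3 no member passed the threshold of the study, an unadjusted p under 0.05 with a change of at least 2-fold, which 1.58% of the 18330 genes tested passed. All 8 log2 differences were positive, from 0.02 for Srebf2 to 0.32 for Idi1, with a median of 0.23 compared with -0.05 over all genes tested. None of the 8 had an unadjusted p under 0.05 (6.60% of all genes did), none had groups that did not overlap (11.6% of all genes), and the adjusted p of limma, with Benjamini-Hochberg adjustment over all genes, ran from 0.826 for Insig1 to 0.996 for Srebf2. For Hmgcs1 the difference was 0.22 on the log2(TPM + 0.1) scale, with a 95% interval from -0.29 to 0.73. For Idi1, whose interval was the widest, it ran from -0.41 to 1.05, so that a change of 2-fold was not outside it. Without CAP day 3 replicate 3 the median of the members was 0.42, and the number past the threshold was still 0.

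At day 6 the members again did not pass the threshold (0 of 8, compared with 3.80% of 18323 genes), but 7 of 8 differences were positive and larger than at day 3 for 7 genes. Fdps had the largest, 0.60 on the log2 scale (SE 0.22, 95% interval 0.07 to 1.12), or 1.51-fold, with means of 119.9 ± 23.3 TPM in P-F127 and 183 ± 49.1 TPM in CAP (SD, 3 libraries each). Sqle followed at 0.56 (interval -0.08 to 1.19) and Dhcr7 at 0.54 (interval -0.01 to 1.10). Hmgcs1 differed by 0.49 (SE 0.20, interval 0.01 to 0.96), or 1.40-fold, then came Idi1 at 0.37, Lss at 0.30 and Srebf2 at 0.23. Insig1 was the exception at -0.27 (SE 0.11, interval -0.53 to -0.0036), or 0.831-fold, from 30.9 ± 2.37 to 25.7 ± 1.98 TPM. The genes other than Insig1 varied together across the libraries, with r of 0.69 to 0.97 for their pairs. Their signs at day 6 and at day 3 are therefore not independent of one another.

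Unadjusted limma p-values under 0.05 at day 6 were found for 3 of the 8 members, compared with 19.2% of all genes: Fdps (adjusted p = 0.234), Hmgcs1 (adjusted p = 0.256) and Insig1 (adjusted p = 0.256). No gene of the whole table reached an adjusted p under 0.05 in this comparison, whereas 3517 had an unadjusted p under 0.05. The first number rested on 1 library, being 1430 without CAP day 6 replicate 3 and 0 in the other 5 fits that left out 1 library. Insig1 was the only member whose groups did not overlap, a pattern seen in 26.0% of all genes, and its exact permutation test over the 20 divisions of the 6 libraries gave p = 0.1, the smallest that 3 against 3 libraries can give. For each of these 3 genes the unadjusted p was under 0.05 in 2 of the 6 fits that left out 1 library. The median of the members was 0.43, compared with -0.12 over all genes, and it was 0.26 without CAP day 6 replicate 2, where the differences of Hmgcs1 and Fdps became 0.31 and 0.40, and neither then had an unadjusted p under 0.05. Since the median difference over all genes was -0.12, scaling the libraries by median ratios moved Insig1 to -0.15, with an unadjusted p no longer under 0.05. It moved the enzymes further from 0, with Fdps at 0.72 and Hmgcs1 at 0.61. The same scaling moved the share of higher genes among those past the threshold from 38.5% to 58.6%, and quantile normalization moved it to 61.9%; at day 3 quantile normalization moved it from 26.9% to 39.9%.

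**Figure D2:**
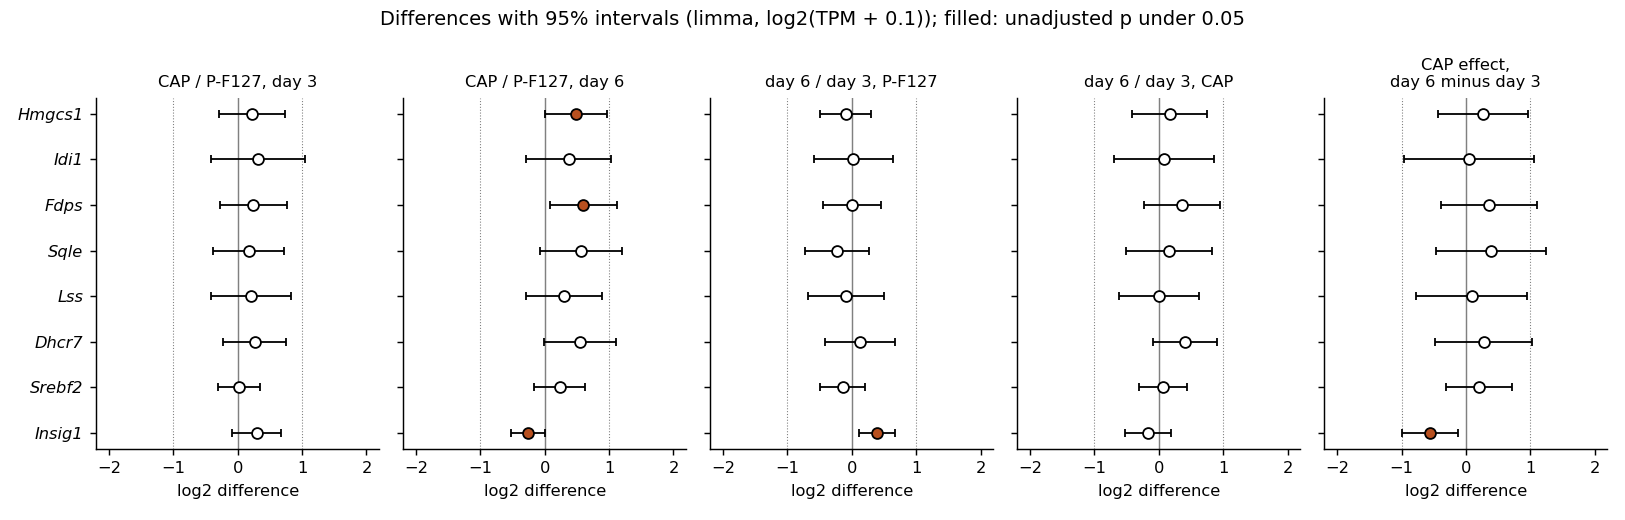
Log2 difference of each gene in the 5 comparisons (points, limma on log2(TPM + 0.1)) with 95% intervals; filled points have an unadjusted p under 0.05 and dotted lines mark 2-fold. No point passes the 2-fold lines; the 5 filled points are Hmgcs1, Fdps and Insig1 for CAP against P-F127 at day 6, and Insig1 for day 6 against day 3 in P-F127 and for the difference of the CAP effect.

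Other features of the wounds moved in the same libraries. At day 6 the keratinocyte marker sum was 27502 to 30673 TPM in P-F127 and 45510 to 94173 TPM in CAP, with 2 of 10 markers past the threshold, both higher (Krt1 by 1.86 and Krt10 by 1.62 on the log2 scale), and 4 of 10 without overlap, compared with 3.80% and 26.0% of all genes. Much of the gap between the sums came from Krt1 (means of 5150 and 19616 TPM) and Krt10 (7748 and 25778 TPM). Differences were positive for 8 of 10 markers, while Itga6 (216 and 202 TPM) and Dsg3 (90.2 and 79.3 TPM) had lower CAP means. The macrophage marker sum was 6799 to 9870.1 TPM in P-F127 and 4051 to 9077 TPM in CAP, with 0 of 6 past the threshold and 2 of 6 without overlap, both with lower CAP levels, a share near that of all genes. Differences were positive for 0 of 6 macrophage markers, with a median of -0.55, compared with 34.3% of all genes and a median of -0.12. At day 3 the keratinocyte sums overlapped, at 30569.9 to 48579 TPM in P-F127 and 25648.6 to 48059 TPM in CAP, and no marker of that list passed. Among the sebaceous markers, of another lipid-making cell type, Krt79 made up nearly the whole sum and measured 68.9 to 122 TPM in P-F127 day 6 and 72.0 to 122 TPM in CAP day 6. The 4 of 6 sebaceous markers tested were all positive at day 6, with a median of 0.67, and Elovl3, at 0.42 to 0.75 TPM in P-F127 and 0.96 to 1.80 TPM in CAP, was the 1 without overlap (adjusted p = 0.236, limma). Of the other markers tested at day 6, 1 of 6 adipocyte markers (Lep) was past the threshold and higher in CAP. Past it and lower were 2 of 5 endothelial markers (Pecam1 and Cdh5), 1 of 6 muscle markers (Myh4) and the 1 hair follicle marker tested of 6 (Tchh), while none of 6 fibroblast, 5 neutrophil, 5 erythroid and 4 wound keratin markers tested passed. At day 3 the 5 erythroid markers were all past it and higher, and of the markers tested in the other lists none was past it. The part of these cell types in the results was not tested, and in bulk tissue fewer cells of a type and less RNA per cell cannot be told apart.

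Between day 3 and day 6 in the gel-only wounds, the estimated differences of the enzymes were small. No member passed the threshold (0 of 8, compared with 3.75% of 18368 genes), while 420 genes of the whole table had an adjusted p under 0.05. That number was 1 without P-F127 day 3 replicate 3, 83 without day 3 replicate 2, 89 without day 6 replicate 3, 212 without day 6 replicate 1 and 275 without day 6 replicate 2. It rose to 498 without P-F127 day 3 replicate 1. In the joint fit of all 12 libraries it was 0. The log2 differences of the 7 genes other than Insig1 lay between -0.23 for Sqle and 0.13 for Dhcr7, and the 95% interval for Fdps, -0.44 to 0.46, left out a change of 2-fold in either direction. The intervals for Idi1, -0.58 to 0.63, and Sqle, -0.73 to 0.27, were wider, so that smaller changes were not excluded. Insig1 was higher at day 6 by 0.39 (SE 0.12, interval 0.11 to 0.68), or 1.31-fold, from 23.6 ± 3.21 to 30.9 ± 2.37 TPM (SD). This was the only member with an unadjusted p under 0.05, 1 of 8 compared with 16.0% of all genes (adjusted p = 0.168, limma), and the only one without overlap, compared with 21.4% of all genes.

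In the CAP wounds 0 of 8 members passed between the days, compared with 2.79% of 18202 genes. Differences were positive for 7 of 8, led by Dhcr7 at 0.41 (interval -0.09 to 0.90) and Fdps at 0.36 (interval -0.22 to 0.95), and Insig1 was at -0.17 (interval -0.53 to 0.19). No member had an unadjusted p under 0.05 (11.6% of all genes did) or groups without overlap (17.7%). The median of the members was 0.12, but it was -0.08 without CAP day 3 replicate 3 and -0.01 without CAP day 6 replicate 2.

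The difference of the CAP effect between the days was tested as an interaction over all 12 libraries. For Insig1 it was -0.56 (SE 0.20, 95% interval -0.997 to -0.13), the CAP effect being 0.30 at day 3 and -0.27 at day 6, with an adjusted p of 0.428 by limma. It was the only member of 8 with an unadjusted p under 0.05, compared with 11.3% of 20267 genes, and it did not reach 2-fold, as 4.90% of all genes did together with that p. For the other 7 members the interaction was positive, from 0.05 for Idi1 to 0.39 for Sqle, and every interval included 0. The CAP effects at each day and the day effects share libraries, so that these values are not independent of one another.

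Across the 12 libraries the genes other than Insig1 varied together, within groups as well as between them. Pearson's r of log2 levels for their 21 pairs was 0.69 to 0.97, with a median of 0.89, and after subtracting the group means it was 0.76 to 0.98. For the 7 pairs with Insig1 it was -0.06 to 0.12, and 0.06 to 0.35 after subtraction. With the mean of the other members, r was highest for Idi1, at 0.97 (Spearman's rho 0.92), and lowest for Insig1, at 0.05 (rho 0.04). The points of all these correlations are the same 12 libraries, and since the members were chosen together no p-value is given for them.

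**Figure D3:**
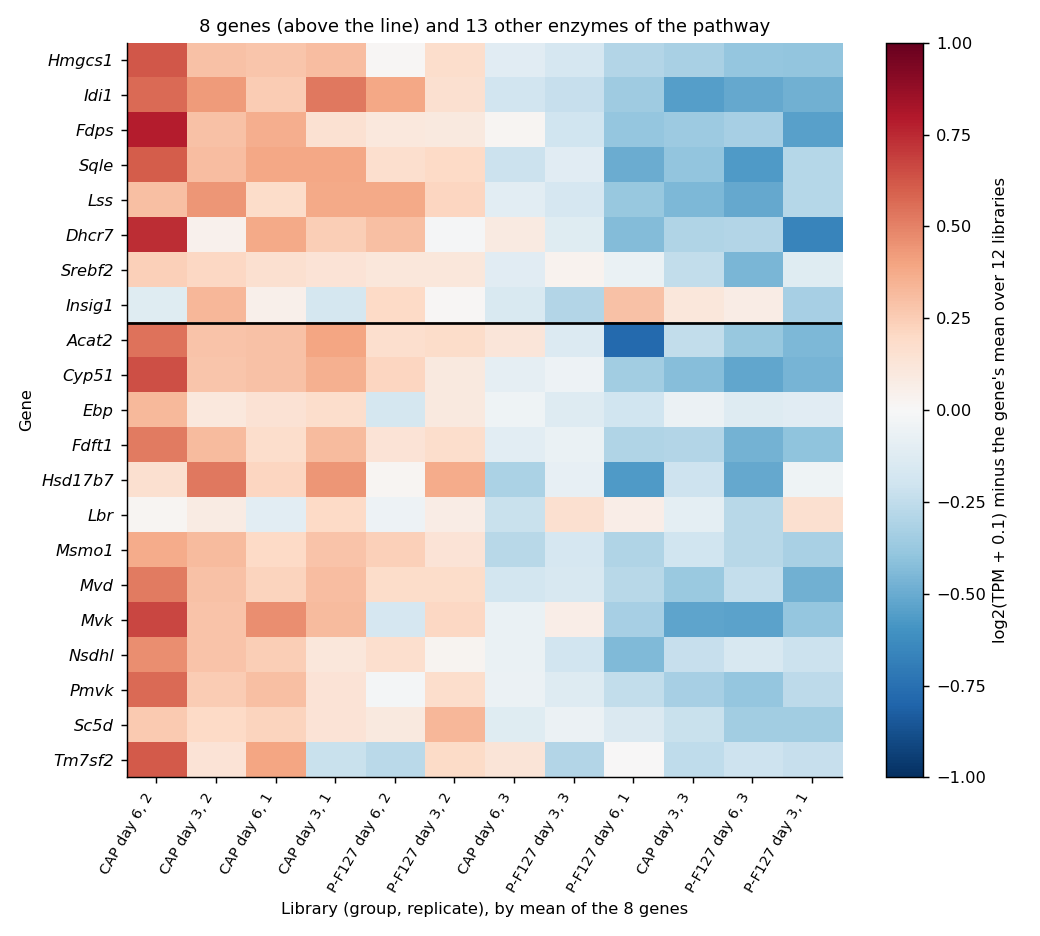
Log2(TPM + 0.1) of each gene minus its mean over 12 libraries (colour scale) for the 8 genes (above the line) and 13 other enzymes of the pathway, with libraries ordered from left to right by the mean standardised level of the 8 genes. Most rows pass from high to low along the same order, which begins with CAP day 6 replicate 2 and ends with P-F127 day 3 replicate 1, whereas Insig1 and Lbr do not.

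By the mean standardised level of the 8 genes, the order began with CAP day 6 replicate 2 (1.27), CAP day 3 replicate 2 (0.91), CAP day 6 replicate 1 (0.73) and CAP day 3 replicate 1 (0.64), and ended with CAP day 3 replicate 3 (-0.86), P-F127 day 6 replicate 3 (-1.09) and P-F127 day 3 replicate 1 (-1.13). The 4 highest libraries were therefore CAP libraries, while the third replicates of both CAP groups lay among the P-F127 libraries. Of 17776 genes with at least 0.3 TPM in each group, the 5 outside the 8 whose levels were most like this mean were Fdft1 (r = 0.98), the squalene synthase gene, Cyp51 (r = 0.98), the lanosterol demethylase gene, Mvd (r = 0.97), the mevalonate diphosphate decarboxylase gene, Msmo1 (r = 0.96), the methylsterol monooxygenase gene, and the adhesion receptor gene Adgrf2 (r = 0.95). The other enzymes of the pathway thus held 4 of the 5 nearest places.

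The 13 other enzymes, a list of genes from the remaining steps, correlated with the mean of the 8 genes at 0.21 for Lbr, which encodes a sterol reductase that is also a lamin receptor, to 0.98 for Fdft1, with 9 of 13 above 0.8. Their own mean level followed that of the 8 genes at r = 0.96 (rho 0.93), and at 0.94 without the 2 libraries farthest from the median. Keratinocyte markers followed it at r = 0.76 (rho 0.69) over the 12 libraries, 0.85 within day 3 and 0.86 within day 6, and 0.64 without the 2 farthest libraries. Macrophage markers ran the other way, at r = -0.85 (rho -0.80), -0.83 within day 3 and -0.91 within day 6. Sebaceous markers had r = 0.15 (rho 0.06). Fibroblast markers had r = -0.64 over the 12 libraries, but -0.87 within day 3 and -0.90 within day 6. For several lists the value depended on the day: within day 3 and day 6 it was 0.31 and -0.92 for erythroid, -0.08 and -0.81 for endothelial, 0.83 and 0.47 for wound keratin, -0.08 and -0.59 for neutrophil and 0.17 and -0.39 for muscle markers. Hair follicle markers were at -0.56 and -0.72, and adipocyte markers at 0.11 and -0.02. Each value within a day rests on 6 libraries. These are descriptions over 12 libraries that differed in their marker sums, and the part of cell composition in them was not tested.

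**Figure D4:**
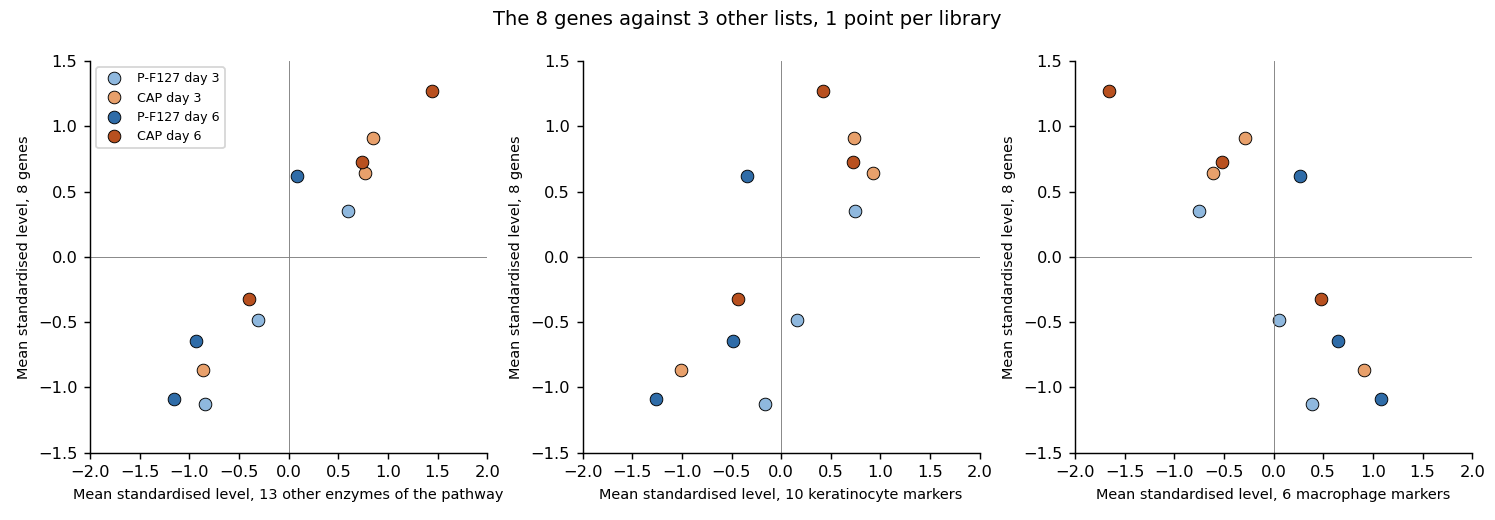
Mean standardised level of the 8 genes (vertical axis) against that of 13 other enzymes of the pathway, 10 keratinocyte markers and 6 macrophage markers (horizontal axes, no unit), 1 point per library. The points rise along the other enzymes (r = 0.96) and the keratinocyte markers (r = 0.76) and fall along the macrophage markers (r = -0.85).

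None of the 13 other enzymes passed the threshold in any of the 5 comparisons. At day 6, 12 of 13 differences between CAP and P-F127 were positive, with a median of 0.37, and 5 had an unadjusted p under 0.05, all with higher CAP means, compared with 19.2% of all genes. The groups did not overlap for 3 of 13, about the share of all genes (26.0%). Mvk, mevalonate kinase, measured 55.4, 61.9 and 48.1 TPM in P-F127 and 96.0, 110.5 and 66.6 TPM in CAP, a difference of 0.70 (SE 0.20, adjusted p = 0.210 by limma) without overlap. The others were Acat2 at 0.65, Tm7sf2 at 0.54, Pmvk at 0.49 and Ebp at 0.31. Tm7sf2, which encodes a sterol reductase, and Ebp, which encodes a sterol isomerase, likewise had groups that did not overlap. At day 3 none of the 13 had an unadjusted p under 0.05, and their median was 0.17 with 11 of 13 positive. Between the days in CAP, Tm7sf2 alone had an unadjusted p under 0.05, at 0.50 (adjusted p = 0.388, limma).

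Of 7 other regulators of the sterol sensor, none passed the threshold in any comparison. Insig2, the second anchor of the SREBP precursor, was the reverse of Insig1 at day 6, with 25.5, 25.3 and 24.6 TPM in P-F127 and 30.6, 30.9 and 28.1 TPM in CAP. The difference was 0.25 (SE 0.10, adjusted p = 0.240, limma), and no CAP library overlapped the P-F127 libraries. Its interaction between the days was 0.32 (adjusted p = 0.437, limma), and within CAP it was at 0.36 between day 3 and day 6 (adjusted p = 0.342, limma). At day 3 the protease gene Mbtps1, at -0.24, and the ligase gene Rnf145, at -0.44, had unadjusted p-values under 0.05 and no overlap (adjusted p = 0.732 and 0.730, limma). They were 2 of 7 in both respects, compared with 6.60% and 11.6% of all genes. Rnf145 had an interaction of 0.48 (adjusted p = 0.428, limma). Scap, the escort of the SREBP precursor, was at 0.32 at day 6 (adjusted p = 0.271, limma).

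Among 5 genes of cholesterol uptake and transport none passed in any comparison. Stard4, a carrier of sterol between membranes, measured 21.3, 25.3 and 18.3 TPM in P-F127 day 6 and 35.7, 37.9 and 25.7 TPM in CAP day 6, a difference of 0.61 (SE 0.19, adjusted p = 0.216, limma) without overlap. Tmem97, at -0.30, and Npc2, at -0.49, had lower CAP means at that day. The groups of Tmem97 did not overlap either, at 40.3 to 42.9 TPM in P-F127 and 31.4 to 35.1 TPM in CAP. Of the 5 genes, 1 was thus without overlap in each direction, compared with 26.0% of all genes in either direction. Npc1, which exports cholesterol from lysosomes, was at 0.54 between the days in P-F127, from 71.2 to 104.1 TPM on average (adjusted p = 0.0616, limma), and had an interaction of -0.82 (adjusted p = 0.428, limma).

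In the list of 10 genes of efflux, esterification and oxysterol response, Ch25h passed the threshold at day 6 and between the days in CAP. It was the only 1 of 10 in either comparison, compared with 3.80% and 2.79% of all genes. It encodes cholesterol 25-hydroxylase, whose product restrains SREBP activation, and measured 4.74, 2.38 and 2.39 TPM in P-F127 day 6 and 1.53, 0.292 and 1.60 TPM in CAP day 6. It was lower in CAP by -1.60 on the log2 scale (SE 0.61, adjusted p = 0.240, limma), and lower at day 6 than at day 3 within CAP by -1.38 (adjusted p = 0.430, limma). Both rested on CAP day 6 replicate 2: without it they were -0.90 and -0.68, short of 2-fold. Soat1, the enzyme that esterifies cholesterol, passed for the interaction alone, at -1.28 (SE 0.52, adjusted p = 0.428, limma), and was at -0.96 without CAP day 6 replicate 2 and at -0.95 without CAP day 3 replicate 3, short of 2-fold in both. For the interaction 1 of 10 genes of this list thus passed, compared with 4.90% of all genes. In the gel-only wounds 6 of the 10 genes had an unadjusted p under 0.05 between the days, all with higher levels at day 6 and without overlap, compared with 16.0% and 21.4% of all genes. They were the exporter Abca1 at 0.97 (adjusted p = 0.0722, limma), Apoe at 0.91 (adjusted p = 0.0618, limma), Soat1 at 0.63, Nr1h3 at 0.60, Scarb1 at 0.54 and Mylip at 0.42. None of these reached 2-fold. In CAP, Mylip was at 0.66 between the days (adjusted p = 0.295, limma).

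Among 6 genes of fatty acid synthesis none passed. At day 6 the differences between CAP and P-F127 were positive for 6 of 6, with Elovl6 at 0.61 (adjusted p = 0.213, limma, without overlap) and Fasn at 0.36 (adjusted p = 0.257, limma). Acaca, at 12.6 to 13.9 TPM in P-F127 and 14.6 to 17.8 TPM in CAP, was also without overlap. These were 2 of 6, compared with 26.0% of all genes. An unadjusted limma p under 0.05 was found for 2 of 6 at that day, compared with 19.2% of all genes. At day 3 they were positive for 3 of 6. Between the days, Scd1 was at 0.58 in P-F127 and 0.94 in CAP, Scd2 at -0.29 in P-F127 and Elovl6 at 0.61 in CAP, each with an unadjusted p under 0.05. That made 2 of 6 genes in either treatment, compared with 16.0% of all genes in P-F127 and 11.6% in CAP. The interaction of Elovl6 was 0.71 (adjusted p = 0.428, limma).

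**Figure D5:**
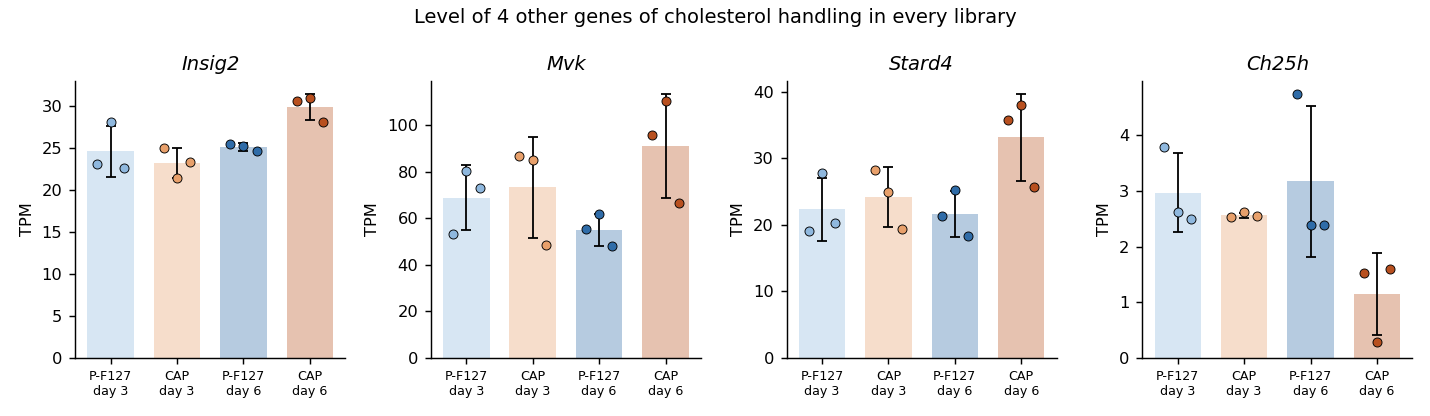
Level in TPM (linear axes from 0) of Insig2, Mvk, Stard4 and Ch25h in the 4 groups; points are the 3 libraries of a group, bars the mean and error bars the SD. At day 6 every CAP library lies above every P-F127 library for Insig2, Mvk and Stard4, and below for Ch25h. The genes drawn were picked from the lists with their values known, and 26.0% of all genes had no overlap at that day.

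The rows of some members can share reads with others, since neither the labels nor the methods say how such reads were treated or whether strand was used. Of the stretches of 31 bases in the GENCODE M21 transcripts of Fdps (GRCm38, chr3:89093588-89101959, minus strand), 24.6% also lie in transcripts of the overlapping gene Gm43738 on the same strand, which was at 0.00 to 1.58 TPM. For Idi1 (chr13:8885501-8892451, plus strand), 18.4% lie in Gm13502, a gene elsewhere, at 11.9 to 29.3 TPM, so that the levels of both members are uncertain to the extent that reads were shared. Counting stretches shared with any other gene, the shares were 27.9% for Fdps, 18.8% for Idi1 and 0.581% to 3.46% for the other 6 members. Genes on the opposite strand overlap Hmgcs1 (chr13:119690379-119708260), Idi1 and Lss (chr10:76531588-76557138), and none was above 0.133 TPM. Sqle (chr15:59315077-59331192), Dhcr7 (chr7:143823145-143848410), Insig1 (chr5:28071363-28078662) and Srebf2 (chr15:82147181-82205379), all on the plus strand, overlap no antisense gene in that annotation, and Srebf2 carries the microRNA gene Mir33, listed at 0 in these tables of longer RNA, in an intron.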

How the data were processed

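RNA of the 12 wound libraries was sequenced by the authors, and the deposited TPM values per gene were made by them with StringTie. The submitters' processing notes name bcl2fastq, Trimmomatic 0.36 and build mm10; for the aligner and annotation release, the sources used here give no name. A value of 0.0001 TPM stands for 0, and depth is unknown.

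The groups were taken from the labels. Both groups had to average 0.3 TPM or more for a gene to be tested (for the interaction, 1 of 4 groups), and the fit was made on log2(TPM + 0.1) with the trended variance prior of limma 3.58.1 (R 4.3.3), a scale that understates changes of low genes; the study's methods gave the filter and the threshold (unadjusted p under 0.05 and at least 2-fold). Adjusted p-values are Benjamini-Hochberg values over all genes tested in a comparison. Single values were also compared by a two-sided exact permutation test. The scripts were tested on simulated data. The members and lists were chosen with earlier results of these data known. All 8 members are reported in full, and of the other lists the genes past the threshold; further genes, mainly those with an unadjusted p under 0.05, were named after their values were seen, and a few genes of these lists are not reported here. Lists of hair follicle, fibroblast, adipocyte, muscle, endothelial, erythroid, neutrophil and wound keratin markers were computed the same way. Promoters are from RefSeq (6 of 8 members matched) and positions from GENCODE M21. The alternatives changed the pseudocount, filter, scaling, trend, replicate block or joint fit, or left out 1 library.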

Additional observations from a re-analysis of the deposited data

Results flagged for a closer look

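The CAP effect on Insig1 had an unadjusted p under 0.05 in the test of its difference between the days, as 11.3% of all genes did (1 of 8 members), and did not pass the adjustment: the log2 difference of the CAP effect, day 6 minus day 3, was -0.56 (adjusted p = 0.428 by limma over 20267 genes). The CAP mean was 29.1 TPM and the P-F127 mean 23.6 TPM at day 3, and 25.7 and 30.9 TPM at day 6. Over all alternatives the value was -0.70 to -0.44, with an unadjusted p under 0.05 in each.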

How the results depend on the processing

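No member passed the threshold in any comparison under any alternative. The number of genes past it moved with the pseudocount, the filter and single libraries. With a pseudocount of 1 TPM it was 154 at day 3, 385 at day 6, 405 between the days in P-F127, 299 in CAP and 580 for the interaction. With no filter it was 568 at day 3, 1156 for P-F127 and 842 for CAP, and with 0.3 TPM required in every library it was 646 for the interaction. Leaving out 1 library gave 204 to 510 genes at day 3, 311 to 1483 at day 6, 382 to 886 between the days in CAP and 657 to 1777 for the interaction; the largest numbers came without CAP day 3 replicate 1 (510) and without CAP day 6 replicate 3 (1483, 886 and 1777), the lowest at day 6 without CAP day 6 replicate 2 (311). The cause was not tested.

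Signs turned in 34 leave-one-out values of 14 gene results, none of which had an unadjusted p under 0.05 with all libraries. Their ranges between the days in P-F127 were -0.096 to 0.27 for Dhcr7, -0.16 to 0.16 for Fdps, -0.23 to 0.058 for Hmgcs1, -0.25 to 0.20 for Idi1, -0.36 to 0.081 for Lss and -0.27 to 0.015 for Srebf2. In CAP they were -0.036 to 0.36 for Hmgcs1, -0.27 to 0.28 for Idi1, -0.29 to 0.16 for Lss, -0.088 to 0.39 for Sqle and -0.077 to 0.17 for Srebf2. For the interaction they were -0.29 to 0.33 for Idi1 and -0.20 to 0.37 for Lss, and at day 3 -0.062 to 0.16 for Srebf2. At day 6 no enzyme turned sign when 1 library was left out (Fdps 0.40 to 0.78, Hmgcs1 0.31 to 0.67). Since TPM keeps no read depth, counting error could not be assessed.

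Whether the replicate numbers pair the libraries was not settled. In no comparison did all 3 same-numbered pairs correlate above 0.1 (1 of 3 pairs between the days in CAP, 0 of 3 in the others), but so few pairs cannot exclude pairing. With the replicate block 298 genes passed at day 3, 725 at day 6, 709 in P-F127, 548 in CAP and 1084 for the interaction, with 0 of 8 members throughout; at day 6 each library correlated best with its own number, and Hmgcs1, Fdps, Sqle and Dhcr7 had an unadjusted p under 0.05 under the block there, with no gene past 2-fold among them.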
